A study of Mus musculus with 8 samples.

Results

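The 10 genes described here are Ahnak, the annexins Anxa1, Anxa2, Anxa3 and Anxa5, and the S100 genes S100a10, S100a11, S100a6, S100a4 and S100a1. They are 10 of 56691 rows of a table of read counts of ribosome-associated messages from the mouse ventral tegmental area (VTA), home of many midbrain dopamine neurons. The members were chosen by name and with their levels in the knockdown and control libraries of this study already known. Their differences between the groups are therefore a description, given with no p-value, and support nothing. Male mice of genotype Ogt flox+/Y (knockdown, replicates 2, 3, 4 and 5) were set against male mice of genotype Ogt flox-/Y (control, replicates 3, 4, 5 and 6). Both groups received the same viruses in the VTA. AAV-TH-Cre carries Cre recombinase behind the promoter of tyrosine hydroxylase. AAV-Flex-NBL10 carries a Cre-dependent, HA-tagged protein of the ribosome through which messages were enriched. Cre, and so the loss of Ogt and the tag, depends on how strictly that promoter keeps to dopamine neurons, and control mice carry Cre as well. The ages, and whether a library is 1 animal or a pool, are not given in the sources used here. The p-values given for other genes therefore cover only the spread among these 8 libraries, which may be technical.

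AHNAK is a giant scaffold protein beneath the plasma membrane. Annexins are proteins that bind the acidic lipids of membranes when calcium rises, and S100 proteins are small calcium sensors of the EF-hand family that mostly work as dimers. The families meet in 1 complex: a dimer of S100A10 holds annexin A2 molecules together, and AHNAK binds that complex at the membrane. S100A11 pairs in a similar way with annexin A1. In brain, several of these genes are known from glia, vessels and injured or inflamed tissue, while S100A10, also called p11, is studied in neurons for its binding to serotonin receptors.

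Ogt, the gene that was targeted, was lower in every knockdown library (35.99 to 74.4 CPM) than in every control library (108.3 to 159.4 CPM), where CPM is a read count scaled to the size of its library. Its log2 fold change was -1.34 (SE 0.23, edgeR adjusted p = 0.00243). Libraries held 55397971 to 94485291 reads in knockdown and 49802305 to 147747191 in control. All 12 dopamine neuron markers of a list were detected. Of these, 11 were lower in knockdown (edgeR adjusted p under 0.05), where 15.1% of all genes tested were called lower. Their sum was 474.6 to 743.1 CPM in knockdown libraries, 3568 CPM in control replicate 3 and 1552 to 1905 CPM in the other controls. The libraries also held messages of other cells. Summed astrocyte markers ranged over 8180 to 12620 CPM in knockdown and 686.2 to 4116 CPM in control. Gfap alone held 5372 to 8401 CPM in knockdown and 236.9 to 1860 CPM in control. Of the 10 astrocyte markers, 3 were called higher (edgeR adjusted p under 0.05) and 7 were not called, where 13.4% of all genes tested were called higher. Control replicate 3 stood apart from the other controls. Its endothelial markers summed to 955.7 CPM and its mural cell markers to 564.6 CPM, against at most 18.9 and 26.8 CPM in the other controls. Its fibroblast markers summed to 199.7 CPM, of which Fn1 held 152.4 CPM, against at most 41.2 CPM in the other controls. Its ependymal and choroid plexus markers summed to 203.3 CPM, of which Ttr held 171.1 CPM, against at most 49.1 CPM. Results that rest on this library are given with and without it. In such samples fewer cells of a type, less RNA per cell and a different strength of the enrichment through the tag cannot be told apart.

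**Figure D1:**
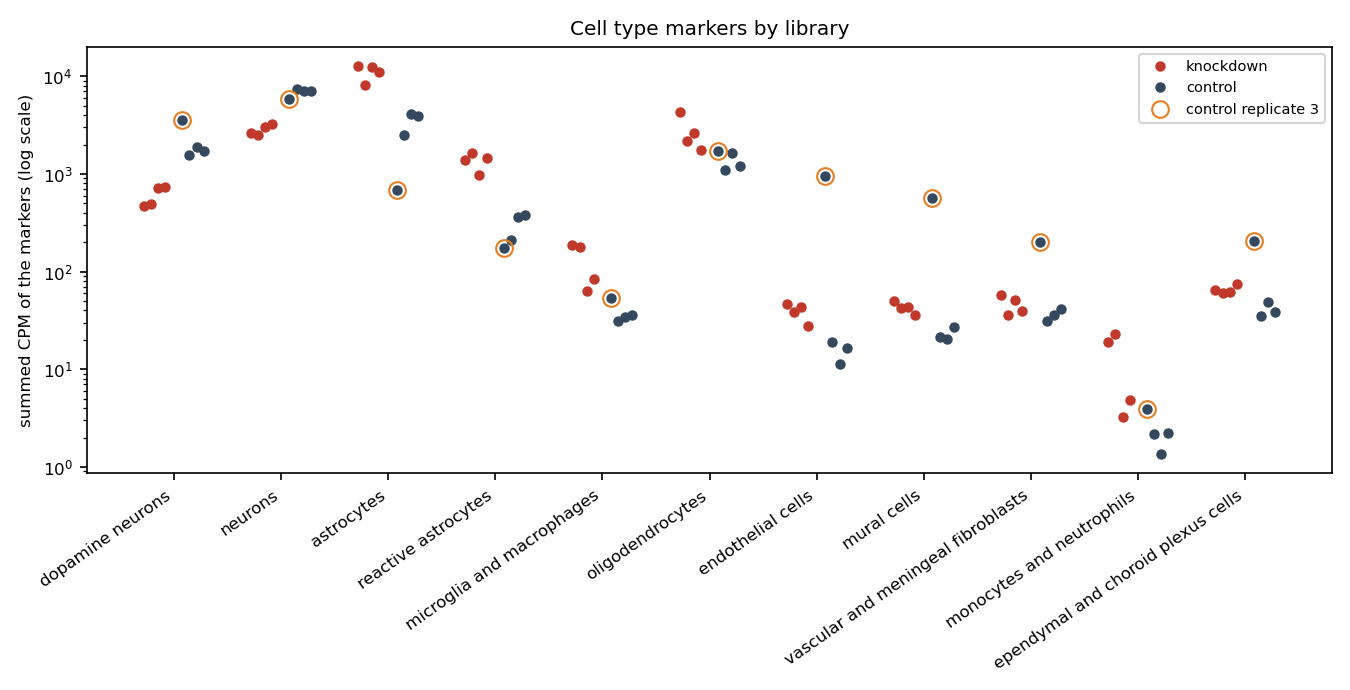
Summed CPM of the marker lists in each library, on a log axis, with knockdown libraries (red) left of control libraries (dark) and control replicate 3 circled. Control replicate 3 was highest for dopamine neuron (3568 CPM), endothelial (955.7 CPM) and mural cell markers (564.6 CPM). It was also highest for fibroblast (199.7 CPM) and for ependymal and choroid plexus markers (203.3 CPM), and lowest for astrocyte markers (686.2 CPM).

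The promoter sequences of 5 members are shown because these genes moved furthest or differently from the rest: Ahnak, S100a6 and S100a11 had the largest rises among the members, Anxa2 depended on control replicate 3, and Anxa1 was the member that was lower. Each line gives the 250 bases before the start site, 5′ to 3′ on the strand of the gene, from RefSeq on GRCm38.p6. Capitals mark matches to an AP-1 motif (TGANTCA), a STAT motif (TTCNNNGAA) or a TATA box (TATAAA), read on both strands. No marked match overlaps another.
Ahnak (chr19:8989034-8989283, plus strand): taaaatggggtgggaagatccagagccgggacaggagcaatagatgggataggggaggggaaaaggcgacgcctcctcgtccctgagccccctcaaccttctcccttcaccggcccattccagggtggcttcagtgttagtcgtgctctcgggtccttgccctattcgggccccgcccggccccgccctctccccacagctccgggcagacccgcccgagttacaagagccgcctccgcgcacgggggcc
S100a6 (chr3:90612644-90612893, plus strand): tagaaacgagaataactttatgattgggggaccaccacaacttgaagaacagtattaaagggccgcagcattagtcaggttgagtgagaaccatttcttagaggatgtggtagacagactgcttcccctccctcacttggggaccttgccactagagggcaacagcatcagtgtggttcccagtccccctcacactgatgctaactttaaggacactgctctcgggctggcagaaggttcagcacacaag
S100a11 (chr3:93520246-93520495, plus strand): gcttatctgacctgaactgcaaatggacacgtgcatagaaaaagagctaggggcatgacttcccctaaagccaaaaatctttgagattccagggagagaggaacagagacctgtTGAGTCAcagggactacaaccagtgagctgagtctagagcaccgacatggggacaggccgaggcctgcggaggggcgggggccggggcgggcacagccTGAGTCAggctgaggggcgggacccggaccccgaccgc
Anxa2 (chr9:69453433-69453682, plus strand): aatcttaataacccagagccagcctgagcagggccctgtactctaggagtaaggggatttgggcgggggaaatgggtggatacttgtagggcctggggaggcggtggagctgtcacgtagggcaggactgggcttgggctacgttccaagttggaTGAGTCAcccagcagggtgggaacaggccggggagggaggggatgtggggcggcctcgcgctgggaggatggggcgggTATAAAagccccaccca
Anxa1 (chr19:20390672-20390921, minus strand): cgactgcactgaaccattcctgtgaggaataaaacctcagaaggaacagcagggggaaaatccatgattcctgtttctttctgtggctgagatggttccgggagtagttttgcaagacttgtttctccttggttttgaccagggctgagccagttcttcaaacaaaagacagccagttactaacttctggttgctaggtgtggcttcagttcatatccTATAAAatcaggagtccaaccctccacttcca

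A promoter window was matched by symbol for 8 of the 10 members, all but Anxa3 and S100a10. The AP-1 letters stood in the windows of Anxa2, 95 to 89 bases before the start site, and of S100a11, 136 to 130 and 38 to 32 bases before it. Among all 32851 windows, 6.7% held that motif. The STAT motif was in 0 of the 8 members' windows and in 7.0% of all windows. TATA letters stood close to the start site of Anxa1, Anxa2 and S100a4. Among all windows, 12.4% held them anywhere in the 250 bases, a share that is not for that place. Such matches describe the letters of these windows only.

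Ahnak had the largest difference of the 10 genes. Its level was 2117, 1413, 787.2 and 440.3 CPM in knockdown replicates 2, 3, 4 and 5, against 79.7, 77.1, 72.5 and 59.6 CPM in control replicates 3, 4, 5 and 6. The groups did not overlap, and the lowest knockdown library lay far above the highest control. Knockdown libraries differed widely among themselves while controls lay close together: the SD was 62.1% of the mean of 1189 CPM in knockdown and 12.4% of the mean of 72.2 CPM in control (n = 4 each). The fitted log2 fold change was 4.04 (SE 0.45), which is 16.5-fold, and 12.1-fold when knockdown replicate 2 was left out. Ahnak alone took 0.228% of all reads in knockdown replicate 2 and 0.0459% in knockdown replicate 5, against 0.0057% to 0.00774% in controls. The gene (ENSMUSG00000069833.14, chromosome 19, 8966648 to 9054278, plus strand, GRCm39) has 19938 exon bases, so many reads fall on it at a modest level per length. In TPM, which divides by exon length, Ahnak averaged 196 ± 131 in knockdown and 11.5 ± 1.42 in control (SD, n = 4 each).

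Microglia and macrophage markers were highest in the same knockdown libraries as Ahnak. They summed to 186.2 and 176.7 CPM in knockdown replicates 2 and 3 and to 63.2 and 84.7 CPM in knockdown replicates 4 and 5, against 31.3 to 54.2 CPM in controls. Of the 12 markers, 9 were higher in knockdown (edgeR adjusted p under 0.05), where 13.4% of all genes tested were called higher. None was at 0 in every library. Astrocyte markers summed to 12620, 8180, 12420 and 10940 CPM in knockdown replicates 2, 3, 4 and 5, and oligodendrocyte markers to 4287, 2177, 2633 and 1743 CPM, against 1085 to 1704 CPM of the oligodendrocyte markers in controls. Knockdown replicate 2 was highest for Ahnak and for all 3 of these marker sums, and none of the sums followed the order of Ahnak over the knockdown libraries throughout. The part of other cell types in the Ahnak difference was not tested.

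The genes whose profile over the 8 libraries was most like that of Ahnak were Clec7a, Mpeg1, Cd52, Oas3 and Cst7. Likeness was the root mean square difference between log2 CPM profiles, each centred on its own mean, among 13252 candidate genes with a symbol. It was 0.45 for Clec7a and 0.65 to 0.67 for the other 4, against a median of 2.06 over all candidates. Clec7a had 7.37, 8.0, 2.64 and 2.22 CPM in knockdown replicates 2, 3, 4 and 5, against 0.167 to 0.451 CPM in controls. These profiles share libraries and the group difference, so the values are a description.

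**Figure D2:**
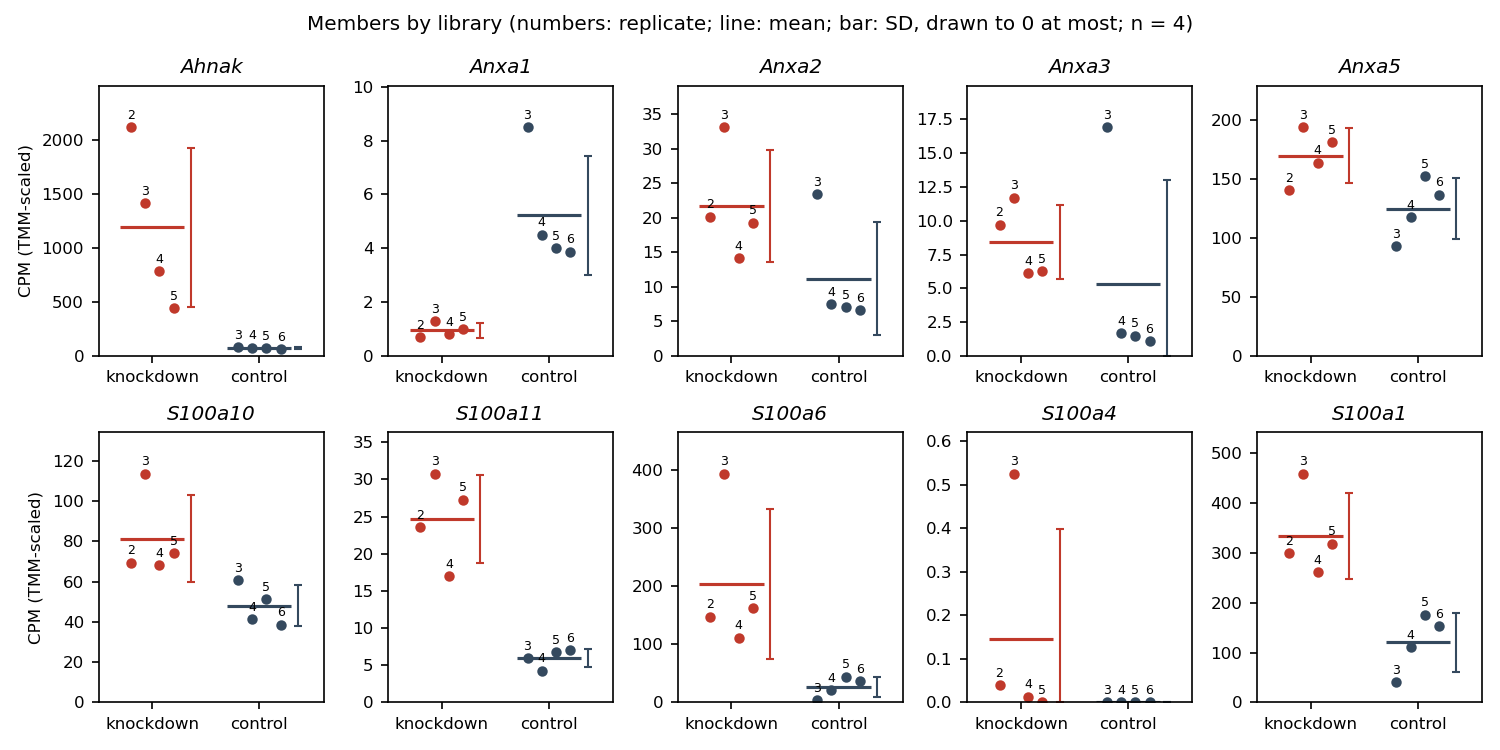
CPM of each member in the 4 knockdown libraries (red, left) and the 4 control libraries (dark, right), numbered by replicate, with the mean and SD of each group on a linear axis per gene. Ahnak, S100a6, S100a11, S100a10 and S100a1 were higher and Anxa1 lower in knockdown with no overlap. Control replicate 3 was highest of its group for Anxa1, Anxa2 and Anxa3 and, by less, for Ahnak and S100a10.

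The annexin members lie apart in the genome. In GRCm39, Anxa1 lies on chromosome 19 (20350792 to 20368308, minus strand), Anxa2 on chromosome 9 (69360902 to 69399077, plus strand), Anxa3 on chromosome 5 (96941198 to 96993825, plus strand) and Anxa5 on chromosome 3 (36503072 to 36530043, minus strand).

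Anxa2 and S100a10, whose products form the tetramer that AHNAK binds, were higher on average in knockdown. Anxa2 had 20.2, 33.1, 14.2 and 19.3 CPM in knockdown replicates 2, 3, 4 and 5, against 23.4, 7.52, 7.04 and 6.66 CPM in control replicates 3, 4, 5 and 6. Control replicate 3 alone lay within the knockdown range, and the other controls lay below every knockdown library. The log2 fold change was 0.96 (SE 0.44) with all libraries and 1.61, which is 3.06-fold, without control replicate 3. S100a10 had 69.5, 113.7, 68.3 and 74.1 CPM in knockdown replicates 2, 3, 4 and 5, against 60.8, 41.4, 51.4 and 38.6 CPM in control replicates 3, 4, 5 and 6. The groups did not overlap, knockdown replicate 3 was highest, and the log2 fold change was 0.76 (SE 0.20). Per length, S100a10 messages outnumbered those of Anxa2 in every library. The TPM ratio of S100a10 to Anxa2 was 10.6, 10.6, 14.9 and 11.8 in knockdown replicates 2, 3, 4 and 5, against 7.998, 17.0, 22.5 and 17.9 in control replicates 3, 4, 5 and 6. It was therefore lower in each knockdown library than in control replicates 4, 5 and 6, while control replicate 3 had the lowest ratio of all.

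By the same measure of likeness, the genes nearest to the averaged profile of Anxa2 and S100a10 were Nradd (0.11), Cchcr1, Clic1, Zfp335os and Eva1c (up to 0.17), where the median candidate stood at 0.75. Clic1, for one, had 10.6 to 20.7 CPM in knockdown, with 12.7 CPM in control replicate 3 and the remaining controls between 5.60 and 7.35 CPM. Each of the 5 was higher in control replicate 3 than in the other controls, as Anxa2 was. The 5 were picked for likeness to a profile that includes Anxa2, so this is a description.

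Anxa3, which encodes another calcium-dependent binder of membranes, depended on the same library more than any other member. It had 9.70, 11.7, 6.13 and 6.26 CPM in knockdown replicates 2, 3, 4 and 5, against 16.9, 1.67, 1.49 and 1.11 CPM in control replicates 3, 4, 5 and 6. Control replicate 3 was the highest of all 8 libraries and the other controls were the lowest. The log2 fold change was 0.68 (SE 0.83) with all libraries and 2.58, which is 5.96-fold, without control replicate 3. Endothelial and mural cell markers were high in that library as given above, at 955.7 and 564.6 CPM. In knockdown libraries they summed to 27.6 to 46.5 and 35.5 to 49.6 CPM. The fibroblast markers and the ependymal and choroid plexus markers were also high in control replicate 3, at 199.7 and 203.3 CPM. In knockdown libraries these summed to 35.8 to 57.7 and 60.5 to 74.6 CPM. The part of these cell types in the Anxa2 and Anxa3 values was not tested.

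Anxa1 was the member that was lower in knockdown. Annexin A1 is induced by glucocorticoids and dampens inflammation through formyl peptide receptors. It had 0.688, 1.30, 0.7996 and 0.990 CPM in knockdown replicates 2, 3, 4 and 5, against 8.50, 4.51, 4.00 and 3.87 CPM in control replicates 3, 4, 5 and 6. Every knockdown library was below every control, and control replicate 3 was highest. The log2 fold change was -2.47 (SE 0.35), and -2.14 without control replicate 3. These levels rest on 60 to 84 reads in each knockdown library and 216 to 628 in each control library. Dopamine neuron markers, as given above, summed to 474.6 to 743.1 CPM in knockdown libraries. Their sum was 3568 CPM in control replicate 3 and 1552 to 1905 CPM in the other controls. The part of dopamine neurons in the Anxa1 difference was not tested. The partner of Anxa1, S100a11, moved the other way. S100a11 had 23.6, 30.8, 17.0 and 27.3 CPM in knockdown replicates 2, 3, 4 and 5, against 5.93, 4.26, 6.76 and 7.04 CPM in control replicates 3, 4, 5 and 6. The groups did not overlap, control replicate 3 lay among the other controls, and the log2 fold change was 2.04 (SE 0.23). The TPM ratio of S100a11 to Anxa1 was 121 to 196 in knockdown libraries and 3.97 to 10.4 in control libraries.

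Anxa5, the binder of phosphatidylserine used to stain dying cells, was the most even of the annexin members. It had 140.7, 194.1, 164.0 and 181.1 CPM in knockdown replicates 2, 3, 4 and 5, against 92.9, 117.6, 152.5 and 136.9 CPM in control replicates 3, 4, 5 and 6. The groups overlapped, since knockdown replicate 2 lay below control replicate 5. Its log2 fold change was 0.44 (SE 0.17).

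S100a6 and S100a1, which lie in the same gene cluster, shared low levels in control replicate 3. S100A6, also called calcyclin, is a calcium sensor first known from dividing cells. S100a6 had 147.8, 394.1, 111.8 and 162.3 CPM in knockdown replicates 2, 3, 4 and 5, against 4.36, 21.3, 44.6 and 36.2 CPM in control replicates 3, 4, 5 and 6. Both groups spread widely, with SDs of 63.0% and 66.5% of their means in knockdown and control, and yet they did not overlap. Its log2 fold change was 2.94 (SE 0.67), 2.58 without control replicate 3, 2.40 without knockdown replicate 3 and 2.04, which is 4.10-fold, without both. S100A1, best known as a calcium sensor of heart muscle that also occurs in brain, had 299.0, 458.7, 261.5 and 318.1 CPM in knockdown replicates 2, 3, 4 and 5. Control replicates 3, 4, 5 and 6 had 40.6, 111.4, 176.1 and 153.5 CPM of S100a1. Every knockdown library exceeded every control, and the log2 fold change was 1.47 (SE 0.39), or 0.99 without both libraries numbered 3.

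S100a4, a sensor known for binding non-muscle myosin in motile cells, was close to absent. It had 4, 29, 1 and 0 reads in knockdown replicates 2, 3, 4 and 5, against 0 reads in each of the 4 control libraries. Most of its reads came from knockdown replicate 3, and a count of 0 allows up to 0.0203 to 0.0602 CPM in a control library, counting error only. The gene did not pass the filter on low counts and no fold is given. Of its 584 exon bases, 51.7% are shared with the overlapping gene model Gm42674, so some of its reads may not have been counted.

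Of the 10 members, 9 passed the filter. In the fit across all genes, 5 of these 9 were called higher and 1 lower at an adjusted p under 0.05, where 13.4% of the 19912 genes tested were called higher, 15.1% lower and 28.5% in either direction. No overlap between groups was seen for 6 of the 9, and for 35.1% of all genes tested. The median log2 fold change was 0.96 over the 9, against 0.002 over all genes tested. As the members were chosen with this contrast known, nothing is read from these shares. The calls numbered 8 without control replicate 3 and 4 without control replicate 4.

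**Figure D3:**
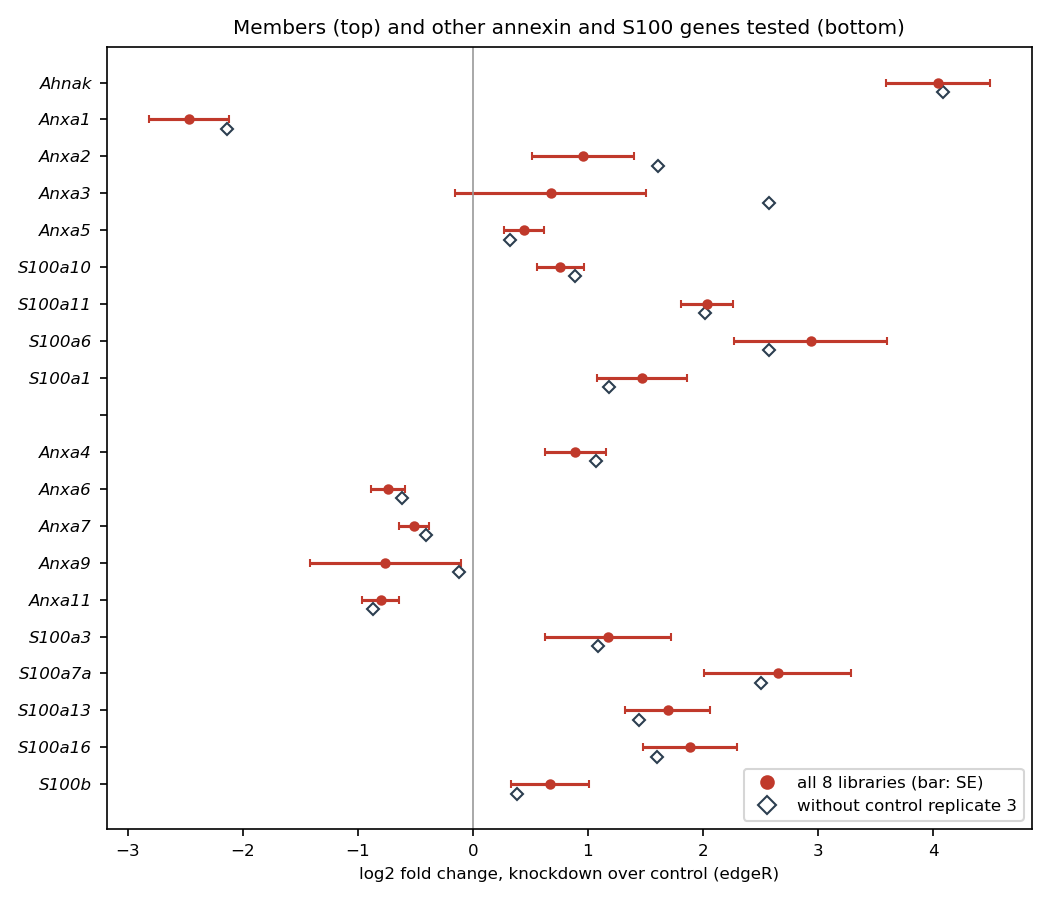
Log2 fold change, knockdown over control, of the 9 members that passed the filter (top) and the 10 other annexin and S100 genes tested (bottom), with all 8 libraries (red, bar: SE) and without control replicate 3 (open diamonds). Anxa3 moved most when that library was left out, to 2.58, and Anxa2 moved to 1.61.

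Of the 8 annexins outside the member list, 5 were tested, and 3 fell and 1 rose in knockdown, where 15.1% of all genes tested were called lower and 13.4% higher. Anxa6, an annexin with a doubled core, fell to 65.1, 63.6, 76.2 and 79.9 CPM in knockdown replicates 2, 3, 4 and 5, against 147.6, 107.8, 121.1 and 98.4 CPM in control replicates 3, 4, 5 and 6. Its log2 fold change was -0.74 (SE 0.15, edgeR adjusted p = 0.00584), with no overlap. Anxa7 fell by 0.51 (SE 0.13, edgeR adjusted p = 0.0156) and Anxa11, an annexin that links RNA granules to lysosomes, fell by 0.80 (SE 0.16, edgeR adjusted p = 0.00594) on the log2 scale. These 3 falls passed the threshold whichever single library was left out. Anxa4 rose, with 5.01 to 8.44 CPM in knockdown and 2.40 to 4.89 CPM in control (log2 fold change 0.89, SE 0.27, edgeR adjusted p = 0.0313). Its call was lost without knockdown replicate 2, 4 or 5 or control replicate 4, 5 or 6 (adjusted p = 0.0571 to 0.0943). Anxa9 did not pass (log2 fold change -0.76, SE 0.65), and Anxa8, Anxa10 and Anxa13 had too few reads to be tested.

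Of 11 other S100 genes on a list that leaves out S100a2, 5 were tested, and 3 of these rose, where 13.4% of all genes tested were called higher. S100a16 had 235.8, 473.5, 239.2 and 271.8 CPM in knockdown replicates 2, 3, 4 and 5, against 29.3, 79.99, 121.7 and 99.5 CPM in control replicates 3, 4, 5 and 6. Knockdown replicate 3 was highest and control replicate 3 lowest, as for S100a1 and S100a6, and the groups did not overlap. The log2 fold change was 1.88 (SE 0.41, edgeR adjusted p = 0.00889). S100a13, which takes part in the release of growth factors that lack a signal peptide, rose with a log2 fold change of 1.70 (SE 0.37, edgeR adjusted p = 0.00891). For S100a13 the value was 1.445 without control replicate 3 and 1.105 without both libraries numbered 3. S100a7a rose by 2.65 (SE 0.64, edgeR adjusted p = 0.0126) at a low level of 0.440 to 1.56 CPM in knockdown, against 0.0418 to 0.269 CPM in control. S100b, the astrocyte member, had 398.9 to 443.3 CPM in knockdown, with 92.9 CPM in control replicate 3 and the remaining controls between 268.4 and 377.6 CPM (log2 fold change 0.67, SE 0.34, edgeR adjusted p = 0.165). Without control replicate 3 the log2 fold change of S100b was 0.39 (adjusted p = 0.0533), and without both libraries numbered 3 it was 0.36 (adjusted p = 0.0254). S100a3 did not pass either (log2 fold change 1.17, SE 0.55). S100a8 and S100a9, which neutrophils carry in large amounts, were too low to be tested, at most 0.217 and 0.746 CPM in any library. The 8 markers of monocytes and neutrophils summed to 18.9, 22.8, 3.25 and 4.80 CPM in knockdown replicates 2, 3, 4 and 5, against 1.35 to 3.93 CPM in controls. Of 5 of these tested, Lyz2, which microglia can also express, was higher (log2 fold change 2.71, SE 0.68, edgeR adjusted p = 0.0168), the other 4 did not pass, and Ly6g was at 0 in every library. S100a14 was also too low, and S100a5, S100g and S100z had no read in any library. The 10 other annexin and S100 genes tested had a median log2 fold change of 0.78, against 0.002 over all genes tested. The families differed, with a median of -0.74 over the 5 annexins and 1.70 over the 5 S100 genes. Of the 10, 7 were called, where 28.5% of all genes tested were. Leaving out any single library gave 6 to 8 calls.

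Reactive astrocyte markers were higher in the same libraries. Of 12 such markers 8 were called higher, where 13.4% of all genes tested were, and Cxcl10, Hspb1, Tm4sf1 and Cd14 were not called. All 12 together summed to 981.5 to 1636 CPM in knockdown and 174.4 to 381.7 CPM in control, with none at 0 in every library. Of that sum, Cxcl10 held 231.9 to 526.0 CPM in knockdown. Control replicate 3, lowest for S100a1, S100a6, S100a13, S100a16 and S100b, was also lowest for these markers and for astrocyte markers as a whole. Knockdown replicate 3, highest for the same 5 genes, was highest for reactive astrocyte markers (1636 CPM) but lowest of the knockdown libraries for astrocyte markers (8180 CPM). The part of astrocytes in the S100 values was not tested.

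Messages of both families were also summed per length. Over the 12 annexins the TPM summed to 437.2, 438.6, 473.3 and 499.3 in knockdown replicates 2, 3, 4 and 5, against 432.9, 400.3, 468.9 and 415.5 in control replicates 3, 4, 5 and 6. The groups overlapped in that sum and differed in its makeup. Anxa5 made up 64.4% to 69.7% of it in knockdown and 37.8% to 58.8% in control, while Anxa6 made up 13.9% to 19.0% in knockdown and 25.6% to 36.4% in control. Anxa2 held 2.77% to 5.67% in knockdown, with 4.53% in control replicate 3 and 1.27% to 1.62% in the remaining controls. Over 16 S100 genes, S100a2 not among them, the TPM summed to 4220, 5428, 3747 and 4125 in knockdown replicates 2, 3, 4 and 5, against 703.0, 1592, 2317 and 1940 in control replicates 3, 4, 5 and 6. These groups did not overlap, and control replicate 3 had the smallest sum. S100a1 was the most abundant S100 message in every knockdown library, at 34.1% to 36.8% of the pool, and S100b came second with 15.4% to 25.3%. In controls S100a1 held 26.0% to 36.1% and S100b 27.9% to 36.6%. S100a6 held 7.54% to 14.9% in knockdown and 1.42% to 4.44% in control. S100a10 held 4.84% to 5.19% in knockdown, with 22.3% in control replicate 3 and 5.21% to 6.92% in the remaining controls. In mean TPM the members stood in knockdown in the order S100a1 (1551 ± 226), S100a6 (467 ± 232), Anxa5 (311 ± 23.5), S100a10 (216 ± 31.4), Ahnak (196 ± 131), S100a11 (156 ± 28.2), Anxa2 (18.6 ± 4.90), Anxa3 (7.49 ± 2.02), Anxa1 (1.04 ± 0.184) and S100a4 (0.709 ± 1.21) (SD, n = 4 each). The ranges of mean ± SD met between S100a6 and Anxa5, between S100a10 and Ahnak, between Ahnak and S100a11 and between Anxa1 and S100a4, and no other neighbours of this order met. In control the order was S100a1 (550 ± 271), Anxa5 (223 ± 45.8), S100a10 (125 ± 25.1), S100a6 (61.8 ± 40.8), S100a11 (37.1 ± 7.53), Ahnak (11.5 ± 1.42), Anxa2 (9.43 ± 6.81), Anxa1 (5.67 ± 2.34), Anxa3 (4.57 ± 6.65) and S100a4, which was at 0. There S100a10, S100a6 and S100a11 met their neighbours in that order, as did Ahnak, Anxa2, Anxa1 and Anxa3, while S100a1 and Anxa5, Anxa5 and S100a10, and S100a11 and Ahnak did not meet.

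**Figure D4:**
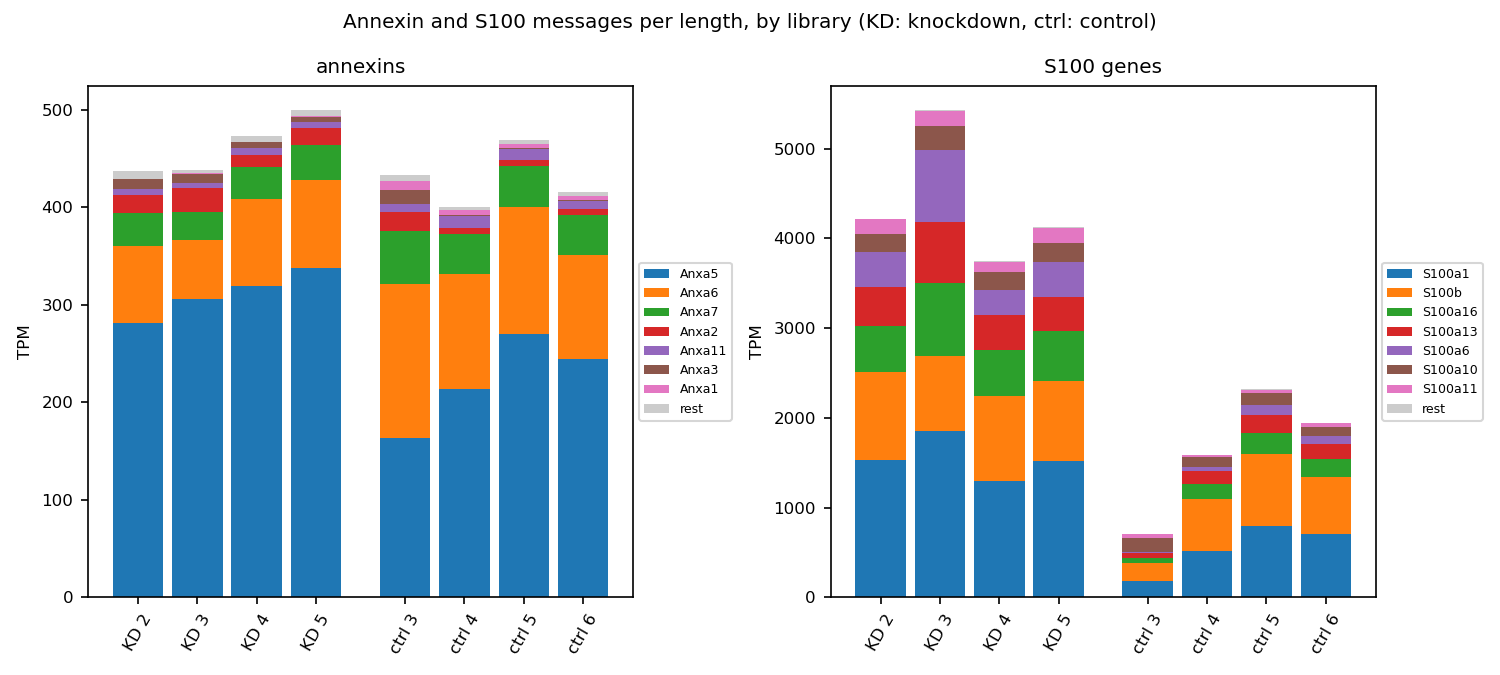
Stacked TPM of the annexins (left) and S100 genes (right) in each library, knockdown left of control, with the less abundant genes summed as rest. The annexin sum lay between 400.3 and 499.3 TPM in all 8 libraries, while the S100 sum was at least 3747 TPM in knockdown and at most 2317 TPM in control.

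All 5 S100 members lie on chromosome 3. In the coordinates of the table (GRCm39) S100a1 (90418341 to 90421699), S100a4 (90511078 to 90513352) and S100a6 (90520189 to 90531488) sit in a cluster with S100a13, S100a16, S100a3, S100a7a and others. S100a11 (93427795 to 93433594) and S100a10 (93462387 to 93471950) sit further along the chromosome. Within the first cluster and 200000 bases to each side, 8 tested genes are not S100 genes, and all 8 start before S100a1. The nearest to S100a1, a gene without a symbol at 90416394 to 90417489, had a log2 fold change of 1.62 (SE 0.47), which is within the range of the S100 genes. Of the 7 with a symbol, the median log2 fold change was -0.13, in a range of -0.80 to 0.73. The 7 S100 genes tested there had log2 fold changes of 1.17 to 2.94, among them S100a2 (1.58, SE 0.95, edgeR adjusted p = 0.243), named here for its place and part of no count or sum above. Beside S100a10 and S100a11, Tchh, which encodes the hair follicle protein trichohyalin with an S100-like start, was the 1 other tested gene with a symbol. It averaged 94.4 CPM in knockdown and 19.6 CPM in control (log2 fold change 2.27, SE 0.20).

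**Figure D5:**
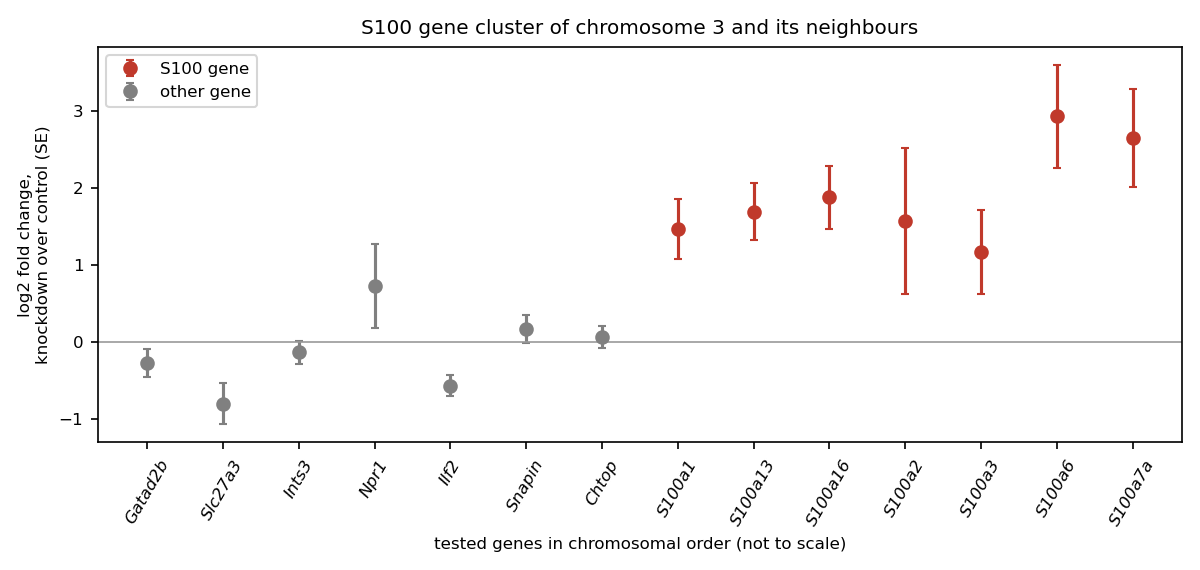
Log2 fold change (knockdown over control, bar: SE) of tested genes with a symbol in chromosomal order through the S100 cluster of chromosome 3, with S100 genes in red and other genes in grey. The S100 genes lay between 1.17 and 2.94 and the 7 neighbours shown between -0.80 and 0.73, while a neighbour without a symbol, not drawn, had 1.62.

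Known partners of these proteins and genes of plasma membrane repair made up a list of 48, of which 47 were matched by symbol. Of these, 45 were tested, 3 rose and 10 fell, and the median log2 fold change was -0.10, against 0.002 over all genes tested, of which 28.5% were called. The 13 calls of 45 are close to that share and are no result about the list. Their count became 21 without control replicate 3 (9 higher, 12 lower), and 8 (1 higher, 7 lower) without knockdown replicate 2, control replicate 5 or control replicate 6. Without both libraries numbered 3 it was 25, 10 higher and 15 lower.

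Among partners of Ahnak, Cacnb1, a beta subunit of L-type calcium channels, fell to 53.0 to 78.8 CPM in knockdown, against 95.0 to 116.0 CPM in control (log2 fold change -0.75, SE 0.15, edgeR adjusted p = 0.00453). The other 5 tested, among them the beta subunits Cacnb2 and Cacnb4, the channel gene Cacna1c and the phospholipase gene Plcg1, did not pass. Cacnb2 had a log2 fold change of -0.55 (SE 0.20, edgeR adjusted p = 0.0632). Its adjusted p was 0.00982 without control replicate 3 and 0.0491 with DESeq2. Cacnb4 had a log2 fold change of -0.47 (SE 0.22, edgeR adjusted p = 0.138), and of -0.65 without control replicate 3 (adjusted p = 0.00625). Plcg1 had -0.32 (SE 0.23) with all libraries and -0.003 without control replicate 3.

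Of 13 tested genes for cargo of S100A10 and for the plasminogen system, 1 rose and 2 fell, a share near or under the 28.5% called over all genes. Plat, the gene of the tissue plasminogen activator, had 79.5, 68.4, 69.3 and 70.3 CPM in knockdown replicates 2, 3, 4 and 5. Control replicates 3, 4, 5 and 6 had 35.7, 15.8, 19.5 and 21.1 CPM of Plat. The groups lay far apart, with a log2 fold change of 1.64 (SE 0.23, edgeR adjusted p = 0.00101). Htr1b, the serotonin receptor that S100A10 binds, fell to 10.2 to 15.4 CPM in knockdown, against 14.8 to 25.6 CPM in control, with control replicate 3 within the knockdown range (log2 fold change -0.79, SE 0.20, edgeR adjusted p = 0.0161). Asic1, an acid-sensing channel, fell by 0.42 on the log2 scale (SE 0.12, edgeR adjusted p = 0.0243), a call lost without knockdown replicate 2 or control replicate 5 or 6 (adjusted p = 0.0535 to 0.0756). Plau and Hltf did not pass (log2 fold changes 1.04 and -0.33), and Plau had an adjusted p of 0.00578 without control replicate 3. Plg itself, the gene of plasminogen, was too low to be tested.

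Of 8 targets and receptors of S100 proteins and annexin A1, 1 rose and 1 fell, again a share near or under that 28.5%. Ager, the receptor RAGE that several S100 proteins bind, had 1.25 to 2.06 CPM in knockdown and 0.418 to 1.06 CPM in control (log2 fold change 1.38, SE 0.39, edgeR adjusted p = 0.0247). Sugt1, which binds S100A6, fell by 0.39 on the log2 scale (SE 0.13, edgeR adjusted p = 0.0451). The Ager call was lost without knockdown replicate 2 or control replicate 4, 5 or 6 (adjusted p = 0.0661 to 0.0745). The Sugt1 call was lost without any library but knockdown replicate 3 or control replicate 3 (0.0834 to 0.109), and with RLE scaling, upper quartile scaling, DESeq2 and both other filters (0.051 to 0.119). Cacybp, the partner of S100A6 for which it is named, the receptor gene Tlr4 and the formyl peptide receptor gene Fpr2 did not pass (log2 fold changes 0.33, 0.71 and 1.69).

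Of 18 membrane repair genes, 6 fell and 1 rose, where 15.1% of all genes tested were called lower and 13.4% higher. Dysf, which encodes dysferlin, fell to 2.33 to 4.56 CPM in knockdown, against 5.81 to 15.9 CPM in control (log2 fold change -1.55, SE 0.33, edgeR adjusted p = 0.00666). Capn1, a calcium-activated calpain protease, fell to 7.78 to 8.65 CPM, against 17.7 to 37.9 CPM in control (log2 fold change -1.63, SE 0.22, edgeR adjusted p = 0.000895). Syt7, a calcium sensor of lysosome fusion, fell by 0.98 (SE 0.18, edgeR adjusted p = 0.00367), Otof, a relative of dysferlin, by 1.48 (SE 0.29, edgeR adjusted p = 0.00506) and the ESCRT gene Vps4b by 0.50 (SE 0.12, edgeR adjusted p = 0.0109). None of these 5 calls was lost when 1 library was left out. Mcoln1, a lysosomal calcium channel, fell by 0.68 (SE 0.23, edgeR adjusted p = 0.0452), but the call was lost without any of 6 libraries (0.0507 to 0.0952) and kept without control replicate 3 or 4. It was also lost with upper quartile scaling (0.0808) and a strict filter on low counts (0.0511). Trim72, a repair protein of muscle, rose, with 0.719 to 1.35 CPM in knockdown and 0.298 to 0.605 CPM in control (log2 fold change 1.19, SE 0.39, edgeR adjusted p = 0.0443). That call was lost without knockdown replicate 2, 3 or 4 or control replicate 4, 5 or 6 (0.0657 to 0.111), without both libraries numbered 3 (0.0527) and with no filter on low counts (0.126).

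Neuron markers were lower in the libraries where these genes fell. They summed to 2523 to 3207 CPM in knockdown and 5913 to 7351 CPM in control. Of the 8, 7 were called lower, where 15.1% of all genes tested were, and none was at 0 in every library. The part of the share of neurons in these falls was not tested.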

How the data were processed

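Ribosome-associated RNA of the ventral tegmental area was sequenced in 4 Ogt flox+/Y (knockdown) and 4 Ogt flox-/Y (control) libraries. The authors deposited raw read counts per gene in 1 table. Per the file headers, featureCounts 2.0.3 counted reads on GENCODE vM30 exons (GRCm39). The command holds no option for strand or multiple alignments, so antisense reads cannot be told apart and near-identical copies such as S100a11-ps can take reads away. Per the submitters' processing notes, FastQC, Trimmomatic, STAR and the build mm10 were used, and the conflict of builds was not resolved. The exon lengths in bases are other deposited values, per the file headers.

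Genes were matched to symbols by ID (GENCODE M21, 52073 of 56691 rows). Library totals of 49802305 to 147747191 reads make a floor of 3 reads equal to 0.0203 to 0.0602 CPM, counting error only. Genes were filtered with filterByExpr and scaled by TMM, which left 19912. They were tested in all 8 libraries with edgeR 4.0.16 (glmQLFit, robust, and glmQLFTest, two-sided) in R 4.3.3, with Benjamini-Hochberg adjustment over all genes tested and a threshold of 0.05. The SE is the size of the log2 fold change divided by the root of F. Fold changes are knockdown over control. TPM was computed from counts and exon lengths without TMM. Log2 CPM used a prior count of 2.

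The members, lists, named genes and alternatives were chosen with earlier results of these data known. Named are Ogt, all members, the 5 genes most like each of 2 profiles, every other annexin and S100 gene of lists that leave out S100a2, and the 5 partners with the smallest p of each list with all that were called; neighbours were named for their place. Libraries of a group differed far beyond sampling noise (chi-square per degree of freedom 25 to 463). Alternatives were RLE and upper quartile scaling, other filters, DESeq2 1.42.0, a replicate block and leaving out libraries. The test was checked on simulated data with 200 changed genes, the same spread for every gene and no outlying library. That check therefore does not cover a library such as control replicate 3 or changes as widespread as those found here.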

Additional observations from a re-analysis of the deposited data

Results flagged for a closer look

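In 5 of 21 groups of 4 libraries examined for the members and Ogt, 1 library lay far from the other 3 by Dixon's test at 95%, which chance alone would flag in about 1 of 20 groups. Control replicate 3 was high for Anxa1 (8.50 CPM, other controls 3.87 to 4.51), Anxa2 (23.4 CPM, others 6.66 to 7.52) and Anxa3 (16.9 CPM, others 1.11 to 1.67). Knockdown replicate 3 was high for S100a10 (113.7 CPM, other knockdown libraries 68.3 to 74.1) and for S100a4 (0.525 CPM, others 0 to 0.0393), which is 29 reads. In control replicate 3 the endothelial markers summed to 955.7 CPM, against 11.4 to 18.9 CPM in the other controls, and no cause was tested.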

How the results depend on the processing

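Each of the 9 members tested kept its direction under all alternatives run, from scaling and filters to DESeq2, the replicate block and each library left out. Calls among the members numbered 3 with the replicate block and 4 to 8 with 1 library left out. Ahnak was 16.5-fold higher in knockdown, and 10.3-fold with the replicate block, the lowest of its alternatives. Of the other annexin and S100 genes, 7 were called and 6 to 8 with 1 library left out. With the replicate block edgeR called 0 of these 10, although 6 had an unadjusted p under 0.05 and DESeq2 without the block called 7. Partner and repair genes numbered 3 with the block, 8 to 21 with 1 library left out and 25 without both libraries numbered 3. Calls over all genes were 5668, then 1258 with the block, 9565 without both libraries numbered 3, and 3876 to 7198 with 1 library left out. In the block fit, knockdown replicate 2 and control replicate 6 share their number with no other library and add nothing to the fold changes. Those fold changes rest on the libraries numbered 3, 4 and 5. Otherwise the cause of these shifts was not tested. Upper quartile scaling gave 3176 higher and 2432 lower calls, where TMM gave 2659 and 3009, and the median of all genes moved to 0.09 on the log2 scale. The replicate numbers were not taken as pairs. Same-numbered libraries (3, 4 and 5) had correlations of 0.104, 0.099 and 0.042 between their deviations from the group means, not every one above 0.1. Differently numbered libraries had correlations of -0.103 to 0.081, below those of replicates 3 and 4, so pairing was not excluded. The other annexin, S100 and partner genes named lost their calls under the block, except the partners Plat, Capn1 and Dysf (adjusted p = 0.0387 to 0.0414). With no filter on low counts S100a16 and Trim72 missed the threshold (adjusted p = 0.0517 and 0.126), as did Sugt1. At this depth S100a4 and the lowest relatives could not be tested.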
